A study of Bos taurus with 6 samples.

Results

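The miRNAs examined here are those of the miR-532, miR-660, miR-500 and miR-362 polycistron, a group of hairpins that sit together inside CLCN5, the gene of a chloride and proton exchanger of endosomes. Members were taken by name, as every listed bovine miRNA called miR-188, miR-362, miR-500, miR-501, miR-502, miR-532 or miR-660 with any letter or arm suffix. This gave 8 of 1028 miRNAs, namely bta-miR-188, bta-miR-362-3p, bta-miR-362-5p, bta-miR-500, bta-miR-502a, bta-miR-502b, bta-miR-532 and bta-miR-660. The 6 small RNA libraries came from cultured bovine granulosa cells, which line the follicle, nourish the oocyte and make estradiol, and which were aspirated from follicles of 3 to 6 mm in slaughterhouse ovaries. All cells were first cultured for 24 h at 37 °C in medium with exosome-depleted serum. The 3 control libraries then came from cells left at 37 °C and the 3 heat stress (HS) libraries from cells exposed to 42 °C for 24 h. The labels name biological replicates without saying which animals were pooled, so p-values measure the spread between these cultures.

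Hairpins of a polycistron are cut from a single primary transcript by the nuclear enzyme Drosha, and Dicer then frees a duplex from each hairpin, of which either arm (5p or 3p) may be loaded into an Argonaute protein. Loaded miRNAs pair with target mRNAs mostly through a short seed near their 5′ end and lower their translation or stability. Members of a polycistron share transcription, while cutting, loading and decay act on each miRNA separately. At steady state and with the later steps equal, a change in transcription moves all of them by the same factor. The hairpins of miR-362, miR-500 and miR-502 are close relatives in sequence, and how the counting shared reads that fit more than 1 of them was not stated, so the split among these members is uncertain.

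By RefSeq gene models (assembly ARS-UCD2.0), 8 hairpin genes matched the 8 members, and all 8 lie within CLCN5. Both arms of miR-362 come from 1 hairpin and miR-502a has 2 hairpin genes. Their order along the chromosome is MIR532, MIR188, MIR502A-2, MIR502B, MIR362, MIR500, MIR660 and MIR502A-1. That assembly is not the one the reads were mapped to, so positions are not given, and the sequences of the mature miRNAs were not used here.

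Values are normalized CPM, that is, reads scaled to a common library size with TMM, a method that assumes that most miRNAs do not change. Every value was a whole multiple of what 1 read is worth, which gave back totals of 2076239 to 4590971 reads per library. A floor of 3 reads corresponded to 0.639 to 1.46 normalized CPM, and this floor covers counting error only. The libraries of a group differed by 84.3 to 431 in chi-square per degree of freedom, so none within a group was a copy of another. bta-miR-202, a gonadal miRNA, was present at 1309 to 2749 normalized CPM. Of the 23 miRNAs taken as markers of red cells, leukocytes, endothelium, epithelium, mesenchyme, muscle and liver, none was at 0 in all libraries. Their summed levels overlapped between the groups in each list. The lists ranged from 12.5 to 62.7 normalized CPM for red cells to 1569 to 2391 for mesenchyme and muscle.

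The members spanned a wide range of levels in granulosa cells. bta-miR-660 averaged 1648 normalized CPM over the 6 libraries and ranked 59th of the 755 miRNAs with a read. bta-miR-532 averaged 1309 and ranked 71st. bta-miR-362-5p and bta-miR-500 followed at 272 and 203. The remaining 4 members were below 100 normalized CPM, with bta-miR-502a at 26.1, bta-miR-188 at 19.7, bta-miR-362-3p at 6.60 and bta-miR-502b at 4.66. Mature miRNAs are of nearly equal length, so scaled reads stand in for a level per length, although ligation into a library favours some ends over others.

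In this order bta-miR-660 was above bta-miR-532 in 6 of 6 libraries, although the ranges of the pair overlapped across libraries. The ranges did not overlap between bta-miR-532 and bta-miR-362-5p, between bta-miR-362-5p and bta-miR-500, between bta-miR-500 and bta-miR-502a, or between bta-miR-188 and bta-miR-362-3p. Neighbours that could not be ordered by their ranges were bta-miR-502a and bta-miR-188, with the former higher in 5 of 6 libraries, and bta-miR-362-3p and bta-miR-502b, with the former higher in 4 of 6. Together the members held 0.375% ± 0.0192 of the reads of control libraries and 0.323% ± 0.0222 of those of HS libraries (SD, n = 3 each).

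**Figure D1:**
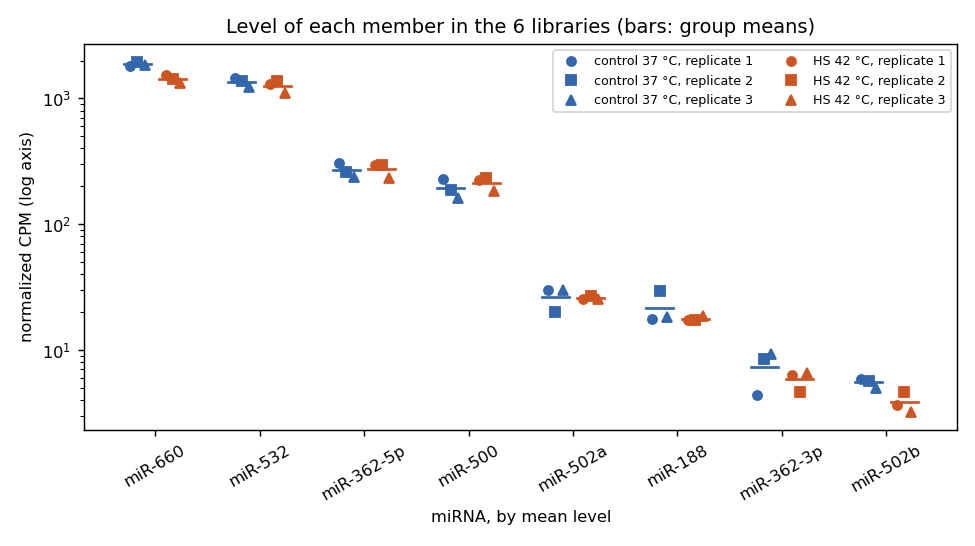
Level of each member (normalized CPM, log axis) in the 3 control and 3 HS libraries; each symbol is a library and each bar a group mean. The 4 most abundant members lie above 100 and the others below 30 normalized CPM, and the groups are apart only for miR-660 and miR-502b.

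To determine whether HS changed these miRNAs, all 8 passed the filter on low reads and were tested with limma among 365 miRNAs. Differences are HS minus control on the log2(value + 1) scale, which understates those of low miRNAs. None of the 8 met the thresholds of the study (adjusted p no higher than 0.2 and a log2 difference of 1 or more in either direction), which 3.01% of the miRNAs tested met. None had an adjusted p under 0.05 either, against 2.19% of those tested. The edgeR quasi-likelihood and DESeq2 Wald tests on the recovered reads also gave 0 at both thresholds. At an unadjusted limma p under 0.05 there was 1 of 8, bta-miR-660, where the background was 14.5%.

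bta-miR-660 was the member that differed most clearly. It stood at 1807, 1966 and 1829.9 normalized CPM in replicates 1, 2 and 3 of the control group and at 1536, 1424 and 1322 in HS replicates 1, 2 and 3. All 3 HS libraries lay below all 3 control libraries. The group means were 1868 ± 86.03 and 1427 ± 107 (SD, n = 3 each), a difference of -23.6%. In limma the log2 fold change was -0.39 ± 0.114 (SE), with a 95% interval from -0.66 to -0.12 and an adjusted p of 0.191. It was thus below 0.2 but far from the required size, and with any single library left out the adjusted p was between 0.222 and 0.496. With every library kept, the limma adjusted p was also above 0.2 with the replicate block (0.204), with recomputed TMM factors (0.202), without the moderation trend (0.264) and without the filter on low reads (0.337), as was that of edgeR with the block (0.22). In bulk RNA such a difference cannot be told apart between fewer cells carrying the miRNA and less of it per cell. Of all miRNAs tested, 7.12% had an adjusted p no higher than 0.2 at any fold change, and 4.11% did while lower in HS cells.

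bta-miR-502b was the other member without overlap, so that 2 of 8 were lower in every HS library than in any control library, against 10.4% of the miRNAs tested, or 20% counting either direction. It had 5.86, 5.65 and 5.02 normalized CPM in control libraries and 3.65, 4.62 and 3.19 in HS libraries, which rest on 11 to 26 reads each. The control libraries were close to each other and the HS libraries lower and more spread. Its log2 fold change was -0.44 ± 0.209 (SE), and limma gave an adjusted p of 0.415. Counting error alone amounts to 0.37 on the log2 scale for a library at this depth, more than the observed SD of 0.208 within groups.

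Next in abundance after miR-660, bta-miR-532 had 1461, 1377 and 1223 normalized CPM in control libraries 1, 2 and 3 and 1312, 1368 and 1114 in HS libraries. The groups overlapped, and in both the library of replicate 3 was the lowest. The means were 1354 ± 121 and 1264.5 ± 133.1 (SD, n = 3 each), with a log2 fold change of -0.10 (95% interval -0.42 to 0.22, limma adjusted p = 0.839). The interval runs from -25.4% to 16.7%. The log2 fold change was -0.011 without HS replicate 3 and -0.17 without control replicate 3, and -0.29 with upper quartile scaling.

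bta-miR-362-5p, the abundant arm of the miR-362 hairpin, had 307, 262 and 239 normalized CPM in control libraries and 295, 297 and 234 in HS ones. Its log2 fold change was 0.03 (95% interval -0.37 to 0.43, limma adjusted p = 0.964). bta-miR-500 had 227, 188.4 and 162 in the control and 225, 231 and 185 in HS libraries, a log2 fold change of 0.16 (95% interval -0.28 to 0.59, limma adjusted p = 0.838), which was 0.040 without control replicate 3 and 0.28 without control replicate 1. Both overlapped between the groups, with replicate 3 lowest in each group, and upper quartile scaling turned the sign of both to -0.15 and -0.029. That scaling moved the median of all tested miRNAs to -0.18, so that both stayed above it.

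The low members did not separate the groups further. bta-miR-188 ranged from 17.6 to 29.3 normalized CPM in control and from 17.1 to 18.5 in HS libraries, and control replicate 2 alone was high. bta-miR-502a ranged from 19.99 to 29.8 in control and from 25.2 to 26.7 in HS libraries, and here control replicate 2 was the low one. bta-miR-362-3p ranged from 4.39 to 9.19 in control and from 4.62 to 6.60 in HS libraries, on 9 to 39 reads. Their log2 fold changes were -0.25, -0.020 and -0.25, and limma adjusted p-values were 0.763, 0.972 and 0.839. Single libraries moved these values, as bta-miR-188 was at -0.017 without control replicate 2, and bta-miR-362-3p was at -0.53 without control replicate 1 and at -0.076 without control replicate 3.

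**Figure D2:**
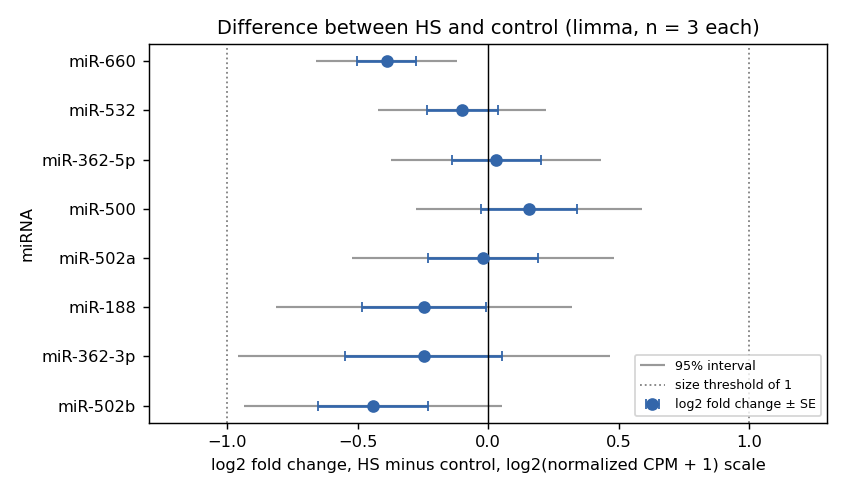
Log2 fold change of each member (HS minus control, log2(normalized CPM + 1) scale) with its SE (capped bars) and 95% interval (grey lines) from limma, n = 3 per group; dotted lines mark a size of 1. Only the interval of miR-660, -0.66 to -0.12, leaves out 0, and no interval reaches a size of 1.

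Over the 8 members, the median log2 fold change was -0.17, beside -0.0015 over all miRNAs tested, and 6 of 8 were below 0, against 50.4% of all. The members added up to 3744 ± 198 normalized CPM in the control group and 3234 ± 282 in the HS group (SD, n = 3 each), a difference of -13.6%. On the log2 scale this was -0.21, and -0.14 without HS replicate 3. Most of the difference was in bta-miR-660. Without it the sums were 1877 ± 184 and 1807 ± 193, a difference of -3.73% with overlapping groups.

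Whether the members moved together across libraries was examined with Pearson's r of log2(value + 1) over the 6 libraries. Among the 28 pairs of members the median r was 0.058, and 17 were above 0 (60.7%). Over all 66430 pairs of tested miRNAs the median was -0.0057, with 49.7% above 0. A two-sided exact permutation p under 0.05 was found for 4 pairs, or 14.3% of the 28, against 8.47% of all pairs. The smallest of these p belonged to a negative r, -0.88 for bta-miR-362-3p with bta-miR-500. The r were positive for bta-miR-362-5p with bta-miR-500, bta-miR-362-5p with bta-miR-532, and bta-miR-502b with bta-miR-660. None of the 4 pairs remained after Benjamini-Hochberg adjustment over all 66430 pairs, where the smallest adjusted p of any pair was 0.45. With 720 pairings of 6 libraries no pair of miRNAs passed that adjustment, even at the highest r, so it says nothing about a common pattern. Against the mean profile of the other 7 members, r was 0.91 for bta-miR-660, 0.82 for bta-miR-502b and 0.65 for bta-miR-532, and between -0.42 and 0.25 for the remaining 5. The median r also depended on scaling, at 0.51 with upper quartile factors, where all pairs had a median of 0.18, and at -0.024 with recomputed TMM factors. It was -0.14 without control replicate 1 and 0.24 without control replicate 3.

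**Figure D3:**
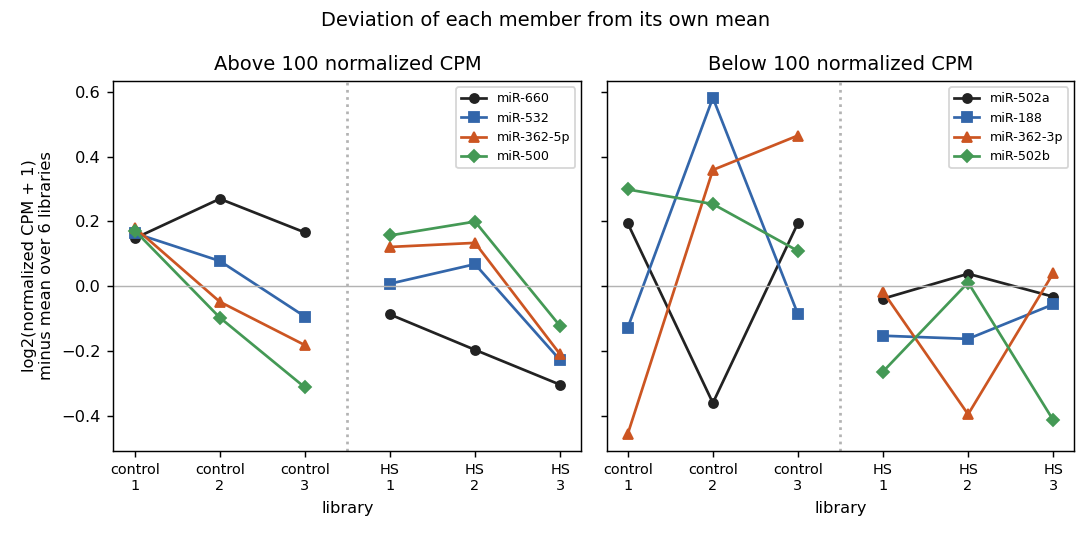
Deviation of each member from its own mean over the 6 libraries (log2(normalized CPM + 1) scale), for the 4 members above 100 normalized CPM (left) and the 4 below (right); lines only join the symbols of a member within a group. miR-532, miR-362-5p and miR-500 are lowest in replicate 3 of both groups, while miR-660 lies above its mean in each control library and below it in each HS library.

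The highest r among abundant members were found for bta-miR-362-5p, bta-miR-500 and bta-miR-532. bta-miR-362-5p and bta-miR-500, neighbours in CLCN5, had r = 0.93 (n = 6, exact permutation p = 0.0264, adjusted p = 0.532) and Spearman's rho = 0.89 (n = 6, exact permutation p = 0.0333, adjusted p = 0.612). Without the libraries of replicate 3, the 2 farthest from the median of bta-miR-362-5p, r was 0.96. bta-miR-362-5p and bta-miR-532 had r = 0.85 (n = 6, exact permutation p = 0.0292, adjusted p = 0.538) and rho = 0.83 (n = 6, exact permutation p = 0.0583, adjusted p = 0.637). This relation rested on the libraries of replicate 3, since r fell to 0.27 without them. For bta-miR-500 and bta-miR-532 r was 0.64 (n = 6, exact permutation p = 0.172, adjusted p = 0.69) and rho 0.66 (n = 6, exact permutation p = 0.175, adjusted p = 0.74), and r was 0.62 without HS replicate 2 and control replicate 3.

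Each value was also taken as its deviation from the mean of its group, which removes the difference between temperatures. The 3 pairs among bta-miR-532, bta-miR-362-5p and bta-miR-500, picked for their high r, then had r of 0.95 to 0.98. With these 3, bta-miR-502b had r of 0.77 to 0.88 and bta-miR-660 of 0.31 to 0.51. The median was 0.12 over the 28 member pairs, with 15 above 0, and -0.0025 over all pairs tested. The r of 0.95 to 0.98 were not recomputed without the libraries of replicate 3. As deviations from the mean of each replicate number instead, r was 0.73 for bta-miR-362-5p with bta-miR-500, 0.28 for bta-miR-362-5p with bta-miR-532 and -0.36 for bta-miR-500 with bta-miR-532. With 1 control and 1 HS library per number, these deviations keep the whole difference between temperatures and rest on 3 differences, so they are given as values only. bta-miR-660 and bta-miR-502b separated by group, so an r over all 6 libraries mixes the group difference with the rest for their pairs. Those pairs are counted in the medians above, and bta-miR-502b with bta-miR-660 is 1 of the 4 with an exact permutation p under 0.05. These r are descriptions over 6 libraries that share their scaling. The members bta-miR-362-5p, bta-miR-500, bta-miR-502b and bta-miR-532, 4 of 8, were lowest in replicate 3 of both groups, as were 16.7% of the tested miRNAs. The labels do not say whether a replicate number marks a common source.

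Ratios between members do not depend on scaling. The reads of bta-miR-500 were 0.739, 0.719 and 0.679 times those of bta-miR-362-5p in replicates 1, 2 and 3 of the control group and 0.762, 0.779 and 0.79 times in HS replicates, higher in each HS library. The log2 ratio differed by 0.13, more than its SD of 0.0624 in the control and 0.0258 in the HS group (exact two-sided permutation test, p = 0.1, the smallest possible). Its SD over the 6 libraries was 0.0811, where counting error alone would give 0.073, while the levels of the pair varied 1.31-fold and 1.43-fold. bta-miR-532 had 4.76, 5.26 and 5.12 times the reads of bta-miR-362-5p in control libraries and 4.45, 4.601 and 4.76 times in HS libraries. Here the SD was 0.0912, against 0.0523 from counting. Both ratios to bta-miR-362-5p thus spanned a narrower range than the levels. That restates the high r of these pairs and is not separate support. Ratios among these 3 members were not planned before the values were seen. The ratio of bta-miR-532 to bta-miR-500 spanned 1.29-fold, with an SD of 0.161 against 0.0594 from counting, and was lower in each HS library (5.84 to 6.02) than in any control library (6.44 to 7.54).

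**Figure D4:**
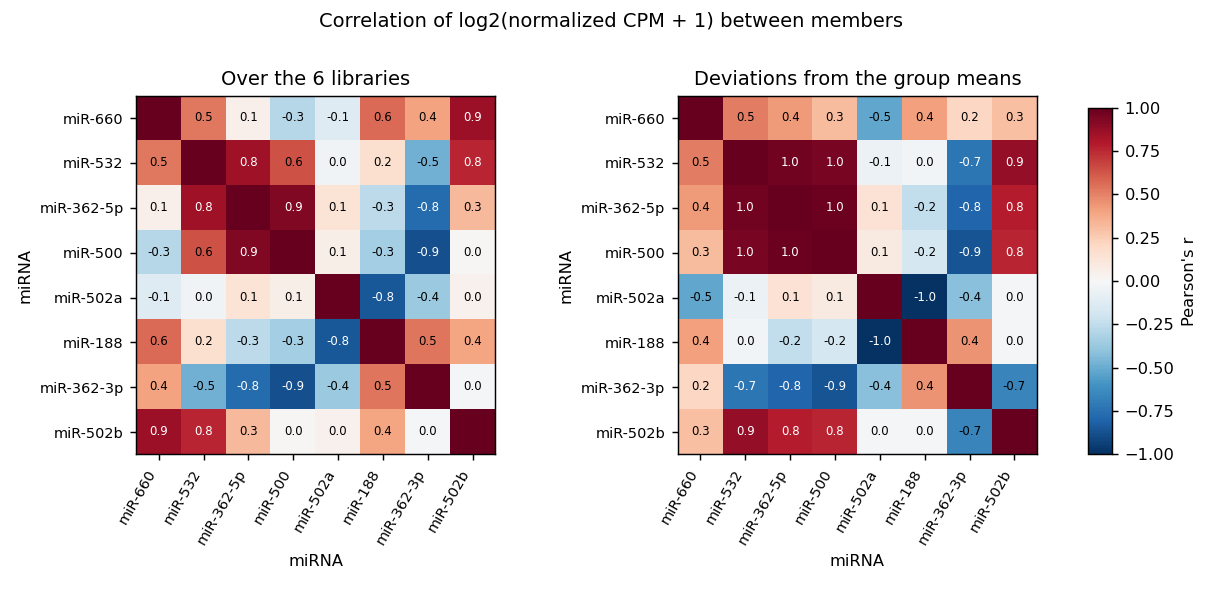
Pearson's r between members, by mean level, over the 6 libraries (left) and for deviations from the group means (right); red is positive and blue negative, and the diagonal is 1 by definition. miR-532, miR-362-5p and miR-500 have r of 0.95 to 0.98 with each other on the right (0.73, 0.28 and -0.36 for deviations from the replicate-number means, which keep the temperature difference and are not plotted), while miR-362-3p is negative against all 3.

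Relative to these 3 members, bta-miR-660 was lower in HS cells, by ratios that do not overlap but cannot pass a threshold of 0.05 with 3 libraries a group. It had 1.24, 1.43 and 1.496 times the reads of bta-miR-532 in the control replicates 1, 2 and 3, and 1.17, 1.04 and 1.19 times in HS replicates. Every HS ratio was below every control ratio. The log2 ratio went from 0.47 ± 0.143 to 0.18 ± 0.104 (SD, n = 3 each), a difference of -0.29 (exact two-sided permutation test, p = 0.1, the smallest p that 3 against 3 allows). Against bta-miR-500, its neighbour in CLCN5, the ratio of bta-miR-660 was 7.96, 10.4 and 11.3 in control libraries and 6.84, 6.15 and 7.15 in HS ones, again without overlap. Relative to bta-miR-362-5p it was 5.88, 7.504 and 7.66 in control libraries and 5.21, 4.79 and 5.65 in HS ones. Against bta-miR-188, bta-miR-362-3p, bta-miR-502a and bta-miR-502b the ratios of bta-miR-660 overlapped between the groups. Their log2 differences were -0.13, -0.11, -0.37 and 0.15 (exact two-sided permutation tests, p = 0.6, 0.9, 0.2 and 0.4). The 3 ratios without overlap were chosen after the values were seen and share bta-miR-660, so they are not independent. Of the 28 pairs of members, 8 had ratios that did not overlap between the groups, while the same held for 21.3% of all pairs of miRNAs tested.

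**Figure D5:**
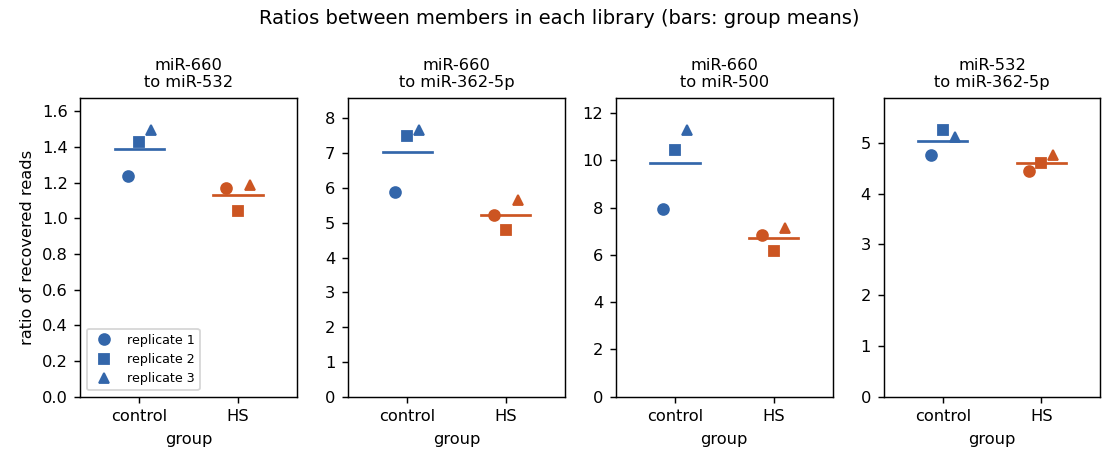
Ratio of recovered reads between members in each library, from 0 on a linear axis, for control (blue) and HS (orange); symbols are replicates and bars group means. The ratio of miR-660 to miR-532, miR-362-5p and miR-500 is lower in each HS library than in any control library, while that of miR-532 to miR-362-5p overlaps. The ratios of miR-660 to the members below 100 normalized CPM overlap and are not plotted.

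The arms of the miR-362 hairpin come from the same precursor, so their ratio does not depend on its transcription. The 5p arm dominated, with 0.0143, 0.0323 and 0.0385 reads of bta-miR-362-3p for each read of bta-miR-362-5p in replicates 1, 2 and 3 of the control group and 0.0214, 0.0156 and 0.0282 in HS replicates. The lowest and the highest ratio were both from control cells. The log2 ratio was -5.26 ± 0.762 in the control group and -5.57 ± 0.429 in the HS group (SD, n = 3 each), which differed by less than replicates did (two-sided exact permutation test, p = 0.6). Levels of the arms ran opposite, with r = -0.77 (n = 6, exact permutation p = 0.0778, adjusted p = 0.605) and rho = -0.83 (n = 6, exact permutation p = 0.0583, adjusted p = 0.637), and r = -0.54 without control replicates 1 and 3. Against bta-miR-500 the 3p arm had r = -0.88 (n = 6, exact permutation p = 0.0125, adjusted p = 0.5) and rho = -0.89 (n = 6, exact permutation p = 0.0333, adjusted p = 0.612), and r = -0.78 without the same libraries. With 9 to 39 reads of the 3p arm per library, its variance within groups was 1.41 times that of counting error, against 15.6 times for the 5p arm.

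Within groups the variance was 22.1 times the counting variance for bta-miR-660, 45.8 times for bta-miR-532 and 13.6 times for bta-miR-500, but 3.65 times for bta-miR-188, 2.45 times for bta-miR-502a and 0.339 times for bta-miR-502b. The negative r of bta-miR-188 with bta-miR-502a, -0.85 (n = 6, exact permutation p = 0.0889, adjusted p = 0.62; rho = -0.31, exact permutation p = 0.564, adjusted p = 0.9), came down to -0.016 without control replicate 2 and HS replicate 2. No pair among the 4 low members had an exact permutation p under 0.05.

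The miRNAs outside the polycistron with the pattern most like the mean profile of the 8 members were bta-miR-17-5p (r = 0.97 over 6 libraries), bta-miR-1260b (0.96), bta-miR-184 (0.94), bta-miR-708 (0.93) and bta-miR-1271 (0.92). They were picked by this r among 357 miRNAs. The mean profile was above 0 in each control library, at 0.033 to 0.13 log2 units, and below 0 in each HS library, at -0.16 to -0.033. The log2 fold changes of these 5 ran from -1.16 for bta-miR-184 to -0.22 for bta-miR-17-5p, with limma adjusted p-values of 0.0528 to 0.452. Their direction follows from how they were picked.

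A pair of other polycistrons was described in the same way. The miR-424, miR-503, miR-450 and miR-542 polycistron had 7 members tested, with a median log2 fold change of -0.016, 0 of 7 past either threshold and a median r of -0.092 over 21 pairs. The miR-17-92 polycistron had 7 tested, with a median log2 fold change of 0.028, 0 of 7 past either threshold and a median r of -0.13 over 21 pairs. Beside them the CLCN5 polycistron had -0.17, 0 of 8 and 0.058. In deviations from the group means the order was another, with a median r of 0.36 for the miR-424 polycistron, 0.12 for that of CLCN5 and -0.13 for miR-17-92. These differences were not tested.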

How the data were processed

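Small RNA libraries were made from 100 ng of RNA with molecular identifiers and 16 PCR cycles. Per the labels and the study's methods, the authors trimmed reads with Cutadapt 1.11, collapsed them by identifier, mapped them with Bowtie2 2.2.2 to assembly UMD3.1 and assigned them to miRBase. The deposited signal is TMM-normalized CPM by the authors, 1 value per miRNA and library. Whole reads were recovered from it (100% of values, tolerance 0.01 read).

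limma 3.58.1 (trend) in R 4.3.3 was run on log2(value + 1) after the filterByExpr filter of edgeR 4.0.16, with Benjamini-Hochberg adjustment over 365 miRNAs. The edgeR quasi-likelihood test and DESeq2 1.42.0 on recovered reads were alternatives, besides other scalings, filters, pseudocounts, a replicate block and leaving out each library. Ratios used exact permutation tests, and correlations all 720 pairings (scipy 1.17.1, Python 3.11.15). The fit was tested on simulated data. Named miRNAs were all members, the 5 most alike in pattern and the gonadal bta-miR-202. Members and lists were chosen with earlier results of these data known.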

Additional observations from a re-analysis of the deposited data

How the results depend on the processing

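No member met either threshold in limma or in any of the 18 alternatives (12 with every library and 6 that each left out 1). With upper quartile factors the median log2 fold change of the members was -0.35 against -0.17, the summed level -0.41 against -0.21 on the log2 scale, and the median r 0.51 against 0.058; this scaling also shifts all tested miRNAs. Recomputed TMM factors gave a median r of -0.024. Without bta-miR-660 the summed level differed by -0.055. The ranges without a single library were -0.21 to -0.11 for the median log2 fold change, -0.25 to -0.14 for the summed level and -0.14 to 0.24 for the median r. The cause was not tested. Signs turned for bta-miR-502a (0.0010 with DESeq2 size factors, 0.0053 with recomputed TMM factors, 0.0094 in the edgeR test with the replicate block, -0.20 to 0.072 without a library), for bta-miR-362-5p (-0.15 with upper quartile factors, -0.051 to 0.14 without a library) and for bta-miR-500 (-0.029 with upper quartile factors).

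For bta-miR-660 the log2 fold change stayed negative in all 18 alternatives, from -0.58 to -0.34, and the adjusted p ran from 0.0884 to 0.496, at most 0.2 in 7 of them. With the replicate block in limma it was 0.204. Deviations from the group means correlated at 0.421, -0.117 and 0.616 between same-numbered libraries. Their mean was 0.306, against -0.157 between different-numbered libraries, and 4 of 6 libraries correlated best with their own number. These values lean towards pairing by number. The main fit had no block because the study named none, and the labels do not say what a number marks. Paired by number, the log2 ratio of bta-miR-660 to bta-miR-532, an analysis added after the data were seen, differed by -0.29 (exact sign-flip test, p = 0.25, the smallest possible), and it ran from -0.37 to -0.23 without a library. The miR-362 arm ratio ran from -0.74 to -0.029 without a library, bta-miR-188 from -0.37 to -0.017 and bta-miR-362-3p from -0.53 to -0.076. Among comparisons of a member under an alternative, 123 kept direction and side of 0.2, 11 fell short of it, all for bta-miR-660, and 10 changed sign.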

Other observations

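The makeup of the reads of the polycistron was also read out. bta-miR-660 took 49.9% ± 2.77 of them in the control group and 44.2% ± 1.73 in the HS group (SD, n = 3 each), and bta-miR-532 36.1% ± 1.58 and 39.1% ± 1.28. The shares of bta-miR-362-5p were 7.18% ± 0.672 and 8.49% ± 0.396, and those of bta-miR-500 5.13% ± 0.668 and 6.60% ± 0.252. None of these 4 overlapped between the groups, and each had p = 0.1 in an exact two-sided permutation test, the smallest possible. Shares add up to the whole, so a lower share of bta-miR-660 raises the others and they are not separate results. The levels of bta-miR-532, bta-miR-362-5p and bta-miR-500 did overlap between the groups. For comparison, 20% of the miRNAs tested had levels without overlap, and 21.3% of their pairs had ratios without overlap. The share of bta-miR-502b, on 11 to 26 reads, was 0.147% ± 0.00459 in control and 0.118% ± 0.0167 in HS libraries, also without overlap (exact two-sided permutation test, p = 0.1). The shares of bta-miR-188, bta-miR-362-3p and bta-miR-502a overlapped, with differences of -0.0273, -0.0156 and 0.0868 percentage points. bta-miR-502a had 5.08, 3.54 and 5.94 times the reads of bta-miR-502b in replicates 1, 2 and 3 of the control group and 6.91, 5.76 and 7.93 times in HS replicates. The SD of this log2 ratio over the 6 libraries was 0.402, against 0.4 from counting error.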
